A study of Homo sapiens with 24 samples.

Results

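NEAT1 antisense oligonucleotides (ASOs) were compared with a control oligonucleotide in SBC-3, an established human small cell lung cancer cell line. The comparison used every library labelled ASO-NEAT1-1047 or ASO-NEAT1-1473 (6 libraries) and every library labelled ASO-Ctrl (3 libraries), so 9 of the 24 libraries of the series. Per the labels' protocols, each oligonucleotide was given at 10 nM by reverse transfection with Lipofectamine RNAiMAX, and RNA was taken at 72 h, poly(A)-selected and made into libraries with a KAPA RNA HyperPrep kit. The control cells carried the same line, dose, transfection reagent and time, and the labels call them wild type and the others NEAT1 knockdown. The other 15 libraries held small interfering RNAs against SFPQ or NONO with a control siRNA of their own, and they entered only where stated. The study asked how SFPQ acts on primary microRNA transcripts and whether paraspeckles take part in it.

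NEAT1 is a long noncoding RNA that stays in the nucleus and forms the scaffold of paraspeckles, bodies in which the RNA-binding proteins SFPQ, NONO and PSPC1 gather. Its short isoform ends at an early polyadenylation site, and the long isoform, which builds the body, runs on past it and ends without a conventional poly(A) tail. Many ASOs pair with a nuclear RNA and recruit RNase H, which cuts the RNA strand of the hybrid.

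Several features limit what these libraries can show. All come from 1 cell line. The sequence, chemistry and target position of the oligonucleotides, and the meaning of the numbers 1047 and 1473, were not given in the sources used here. The deposited files give 1 count per gene, so the short and the long NEAT1 isoforms were not told apart, and poly(A) selection can favour the short one. The labels do not say whether the replicates of a group were separate cultures, so p-values measure only the spread between these libraries, which may be technical.

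Total counts ran from 9717221 to 14810746 in ASO-Ctrl and from 10162388 to 14886353 in the 6 NEAT1 ASO libraries, and 14549 genes passed the filter on low counts and were tested. The labelled tumour type was checked against its markers. YAP1, a transcriptional co-activator that marks 1 subtype of small cell lung cancer, was measured at 325 to 450 CPM, the count of a gene scaled to library size in the 9 libraries. NEUROD1 was at 3.26 to 7.30 CPM, SYP at 14.0 to 24.9 CPM and ENO2 at 23.0 to 28.3 CPM, and INSM1, NCAM1, GRP and UCHL1 had no read. CHGA was at most 0.312 CPM, so several neuroendocrine markers of the label were absent or nearly so. Of markers of other cells, DCN, LUM and CD3E had no read and PTPRC had 1 read. The fibroblast markers were mixed, since COL1A1 was at 13.3 to 34.4 CPM and COL1A2 at 2.65 to 5.06 CPM. Of epithelial markers, KRT8 was at 114 to 127 CPM, but EPCAM, KRT18, KRT19 and CDH1 were each at most 0.209 CPM. The summed level of the 20 listed markers of other cells was 214.7 to 229.6 CPM in ASO-Ctrl and 213.6 to 240.2 CPM in the NEAT1 ASO libraries, most of it KRT8 and TP63, which SBC-3 expressed in all 9 libraries.

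The libraries fell apart by replicate number more than by oligonucleotide. After the mean of its group was taken off each library, same-numbered libraries of different groups correlated across the 8934 genes with a mean of at least 10 CPM (r = 0.393 to 0.722 over 9 pairs), whereas differently numbered ones gave r = -0.635 to 0.0684. Because the deviations within a group cancel out, positive values for same-numbered libraries push the differently numbered ones negative. The latter range is therefore no separate evidence. Those correlations run across genes, which are not independent replicates. Replicate number held 55.0% and group 19.5% of the variance of log2 CPM. With only 9 libraries, a factor takes up part of the variance even without any effect. The group share therefore does not show an effect of the oligonucleotides. In a fit with the number as a block, the number itself was called in 3560 of 14549 genes (24.5%). Results are therefore given both without and with the replicate number as a block. A called gene had an adjusted p (Benjamini-Hochberg over all genes) below 0.05 in edgeR's quasi-likelihood test, and "rose" or "fell" stands only for such genes.

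A second feature split the control group itself. ASO-Ctrl replicates 1 and 2 held far less of the short structural RNAs of the spliceosome, nucleolus and cytoplasm than the other 7 libraries. Over 61 such genes tested (U-type spliceosomal RNAs, small nucleolar RNAs, Y RNAs, 7SL, 5S rRNA and mitochondrial tRNAs), the summed level was 117.8 and 109.0 CPM in ASO-Ctrl replicates 1 and 2. It was 463.6 CPM in ASO-Ctrl replicate 3 and 313.5 to 406.5 CPM in the NEAT1 ASO libraries. The mean of the other 7 libraries was 3.36 times that of the low pair.

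Single genes showed the same division. RNU4-2, a U4 spliceosomal RNA, was at 6.09 and 5.67 CPM in ASO-Ctrl replicates 1 and 2, at 68.0 CPM in replicate 3 and at 33.5 to 56.7 CPM in the NEAT1 ASO libraries. MT-RNR1, the mitochondrial 12S rRNA, was at 2185, 2208 and 7548 CPM in the ASO-Ctrl libraries and at 4245 to 5121 CPM under the NEAT1 ASOs. Clustered histone genes, whose main mRNAs end in a stem-loop in place of a tail, summed to 160.1, 131.8 and 247.4 CPM in ASO-Ctrl and to 184.8 to 230.9 CPM in the NEAT1 ASO libraries (39 genes). In 29 of the 61 structural RNAs and in 19 of the 39 histone genes, ASO-Ctrl replicates 1 and 2 lay below all other 7 libraries, against 508 of all 14549 genes (3.49%). These classes were chosen after their values were seen and carry no test. Short RNAs of near-identical copies are also uncertain, because how multiply mapped reads were counted is not given in the sources used here.

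**Figure D1:**
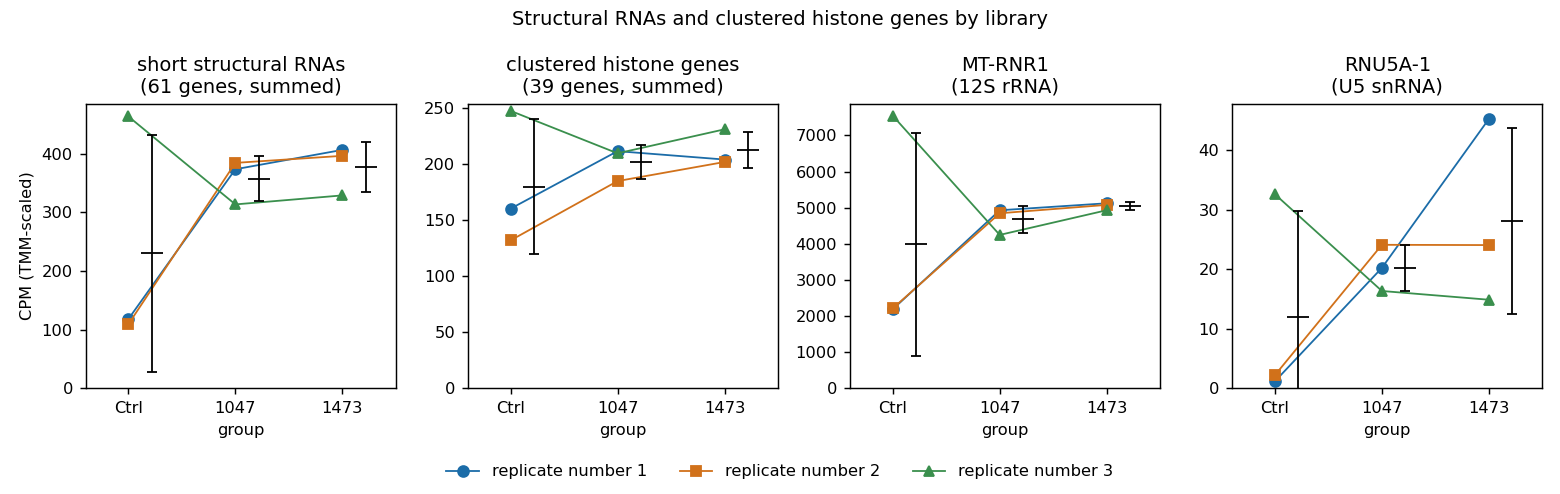
Level in each library (CPM, linear axis from 0) for the summed short structural RNAs, the summed clustered histone genes, MT-RNR1 and RNU5A-1, by oligonucleotide group. Coloured points joined by lines are libraries with the same replicate number, and black bars are the group mean ± SD (n = 3, cut off at 0). ASO-Ctrl replicates 1 and 2 sit below the other 7 libraries in each panel, and ASO-Ctrl replicate 3 sits with or above the NEAT1 ASO libraries.

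The targeted RNA was examined first. NEAT1 (chromosome 11, positions 65422774 to 65445540, plus strand, hg38) measured 219, 294 and 395 CPM in ASO-Ctrl replicates 1, 2 and 3. The libraries labelled ASO-NEAT1-1047 held 248, 337 and 324 CPM, a range inside that of the controls. The libraries labelled ASO-NEAT1-1473 held 185, 208 and 237 CPM, below every ASO-NEAT1-1047 library but overlapping the lowest control. Each ASO-NEAT1-1473 library was also below its same-numbered control, in 3 of 3 pairs, while ASO-NEAT1-1047 was below it in 1 of 3.

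The log2 fold change of NEAT1 over both ASOs was -0.26 (95% interval -0.65 to 0.13, adjusted p = 0.999). For ASO-NEAT1-1473 alone it was -0.52 (-0.98 to -0.07, unadjusted p = 0.0283, adjusted p = 1.00), and for ASO-NEAT1-1047 alone it was 0.00 (-0.45 to 0.46). With the replicate block the values were -0.24 (-0.41 to -0.06, adjusted p = 0.631) for both, -0.50 (-0.70 to -0.30, adjusted p = 0.106) for ASO-NEAT1-1473 and 0.03 (-0.17 to 0.23) for ASO-NEAT1-1047. NEAT1 was therefore not called against the control by edgeR in either fit, while DESeq2 with the block called it for ASO-NEAT1-1473 (-0.50, adjusted p = 0.0301). In each of those fits the interval for both ASOs together held no 2-fold reduction of NEAT1.

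The NEAT1 value depended on which control library served. Without ASO-Ctrl replicate 3 the log2 fold change over both ASOs was -0.03, and without ASO-Ctrl replicate 1 it was -0.46. Against ASO-Ctrl replicate 3 alone, a comparison added after the structural RNAs had been seen, it was -0.64 (adjusted p = 1.00), with an interval that reached a 2-fold reduction at its lower end and -0.29 at its upper end, with -0.91 (-1.29 to -0.53) for ASO-NEAT1-1473 and -0.38 (-0.76 to 0.00) for ASO-NEAT1-1047. None of these was called. That fit rests on a lone control assumed to vary like the other groups.

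The ASOs themselves differed in NEAT1. ASO-NEAT1-1473 minus ASO-NEAT1-1047 was -0.53 in both fits, and it was called with the block (-0.73 to -0.33, adjusted p = 0.0448) but not without it (-0.98 to -0.07, unadjusted p = 0.0275, adjusted p = 0.995). With the block it was called in 4 of 9 fits that left out 1 library, with adjusted p up to 0.276.

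Without the block, edgeR called 0 of 14549 genes (0%) for the mean of both ASOs against the control. The count at an unadjusted p under 0.05 was 297 (2.04% of the genes tested). DESeq2, run on 32564 genes without that filter on low counts, called 0 with 213 at that level (0.654%). Each ASO alone gave 0 calls against the control by either tool. In edgeR 314 genes (2.16%) were under 0.05 for ASO-NEAT1-1047 and 332 (2.28%) for ASO-NEAT1-1473, and in DESeq2 205 (0.630%) and 258 (0.792%). The direct difference between the ASOs also gave 0 calls (386 genes, 2.65%, under 0.05 in edgeR and 307, 0.943%, in DESeq2). The median log2 fold change of all genes tested was 0.00 for the mean of both ASOs, and the middle 95% of genes lay between -0.31 and 0.47.

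Without ASO-Ctrl replicate 3 the same fit called 20 genes for the mean of both ASOs, 15 for ASO-NEAT1-1047 and 13 for ASO-NEAT1-1473. All 20 were higher in the NEAT1 ASO libraries. They comprised 15 short structural RNAs, among them RNU4-1 at 2.90, RNA5S9 at 3.31 and RNY1 at 2.54 (log2), MT-RNR1 at 1.14 and 4 clustered histone genes, among them H4C3 at 1.46. None of the 20 lay outside these classes. Leaving out any other single library gave 0 calls.

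**Figure D2:**
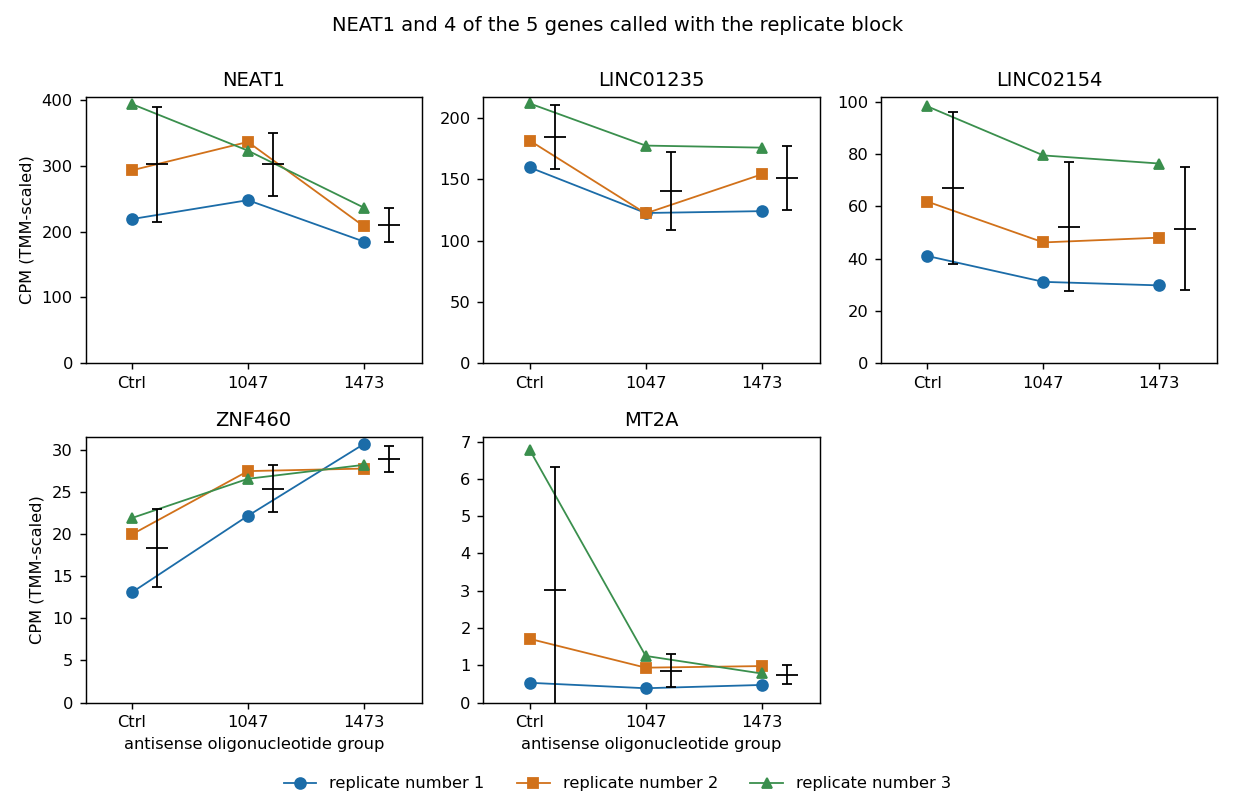
Level in each library (CPM, linear axis from 0) of NEAT1 and of 4 of the 5 genes called for the mean of both NEAT1 ASOs in the fit with the replicate block, by oligonucleotide group. Coloured lines join libraries of the same replicate number, and black bars are the group mean ± SD (n = 3, cut off at 0). NEAT1 is lower under ASO-NEAT1-1473 than under the control in each same-numbered pair, but the group ranges overlap.

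With the replicate block, 5 of 14549 genes (0.0344%) were called for the mean of both ASOs, 2 higher (0.0137%) and 3 lower (0.0206%), and 997 genes had an unadjusted p under 0.05. All 5 moved in the same direction in each of the 6 same-numbered pairs with the control. The blocked test favours genes with such agreement, and both ASOs share the ASO-Ctrl libraries, so the pairs are no separate evidence. The group ranges of these genes overlapped except for ZNF460, and the replicate number was itself called in 4 of the 5.

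LINC01235, a long noncoding RNA (chromosome 9, 13406380 to 13488125, minus strand), measured 160, 182 and 212 CPM in ASO-Ctrl, 123, 122 and 178 CPM in ASO-NEAT1-1047 and 124, 154 and 176 CPM in ASO-NEAT1-1473. It fell by 0.35 (log2 change -0.35, SE 0.05, adjusted p = 0.00164). It overlaps an unnamed gene on the opposite strand. Overlaps given here are of whole gene spans, and overlap of exons was not checked. Since the strand setting of the counting is not given in the sources used here, some reads of the pair may be mixed. LINC02154, a long noncoding RNA on chromosome X (13266048 to 13303452, minus strand), measured 41.0, 61.8 and 98.2 CPM in ASO-Ctrl replicates 1 to 3, 31.1, 46.2 and 79.5 CPM in ASO-NEAT1-1047 and 29.7, 48.0 and 76.4 CPM in ASO-NEAT1-1473. Each NEAT1 ASO library was lower than its same-numbered control, and the log2 change was -0.38 (SE 0.06, adjusted p = 0.00164).

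ZNF460, a zinc finger gene (chromosome 19, 57280051 to 57294069, plus strand), measured 13.1 to 21.9 CPM in ASO-Ctrl, and all 6 NEAT1 ASO libraries were higher, at 22.2 to 30.7 CPM. It rose by 0.58 (SE 0.10, adjusted p = 0.0237), and it overlaps ZNF460-AS1.

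MT2A, a metallothionein that binds metal ions (chromosome 16, 56608584 to 56609497, plus strand), was barely detected. It measured 0.530, 1.71 and 6.78 CPM in ASO-Ctrl and 0.384 to 1.25 CPM in the NEAT1 ASO libraries. Its log2 change of -1.72 (SE 0.34, adjusted p = 0.0393) rested on few reads, and ASO-Ctrl replicate 3 was the highest library. In fits that left out 1 library it ran from -2.20 to -0.70, and it was called in 3 of 9.

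The blocked calls depended on single libraries. LINC01235 and LINC02154 were each called in 8 of 9 fits that left out 1 library, ZNF460 in 4 of 9. No gene was called without ASO-Ctrl replicate 2. The count was 59 without ASO-Ctrl replicate 3, 23 without ASO-NEAT1-1473 replicate 1, 16 without ASO-Ctrl replicate 1 and 3 without ASO-NEAT1-1047 replicate 1 or 2. A blocked fit on all 24 libraries called 0 of 15869 genes for this comparison.

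Genes just short of the threshold with the block included several nuclear noncoding RNAs. KCNQ1OT1, the imprinted antisense RNA of KCNQ1, had a log2 change of 0.22 (adjusted p = 0.0598) and CPM of 257, 245 and 313 in ASO-Ctrl against 301 to 348 in the NEAT1 ASO libraries. MALAT1, which lies beside NEAT1 and marks nuclear speckles, had 0.22 (0.12 to 0.32, adjusted p = 0.131). CCT4, a subunit of the cytosolic chaperonin, had -0.20 (adjusted p = 0.0598), and its 6 NEAT1 ASO libraries (380 to 432 CPM) lay below its 3 controls (459 to 469 CPM).

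Each ASO was also set against the shared ASO-Ctrl libraries with the block. For ASO-NEAT1-1047, 4 genes (0.0275%) were called, 1 higher (0.00687%) and 3 lower (0.0206%): LINC01235 at -0.40, LINC02154 at -0.37 and SERPINE2 at -0.36 fell. SERPINE2, a secreted inhibitor of serine proteases, measured 66.3 to 75.4 CPM in ASO-Ctrl and at most 59.2 CPM in ASO-NEAT1-1047, without overlap. Under ASO-NEAT1-1473 it was at 63.8 to 74.6 CPM with a log2 change of -0.08 (adjusted p = 0.859).

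For ASO-NEAT1-1473, 17 genes (0.117%) were called, 10 higher (0.0687%) and 7 lower (0.0481%). The higher ones included DST, a linker of cytoskeletal filaments, at 0.40, GUCY1A2, a subunit of soluble guanylate cyclase, at 0.42, FN1, the matrix protein fibronectin, at 0.31, ZNF460 at 0.67 and KCNQ1OT1 at 0.24. SPACA6 rose by 0.76, from 5.53 to 6.97 CPM in ASO-Ctrl to 10.3 to 10.6 CPM in ASO-NEAT1-1473. It overlaps SPACA6-AS1 on the opposite strand. The lower ones were LINC02154 at -0.39, HMGN4, a nucleosome-binding protein, at -0.33, the mitochondrial pseudogene MTND2P28 at -0.31, LINC01235 at -0.29, CCT4 at -0.23, MT-CYB, cytochrome b of the respiratory chain, at -0.23 and the keratin KRT25 at -0.22. MTND2P28 is a nuclear copy of MT-ND2, so reads of the pair may have been shared between them.

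These counts moved with single libraries as well. For ASO-NEAT1-1047 the blocked count was 274 without ASO-Ctrl replicate 1, 46 without ASO-Ctrl replicate 3, 41 without ASO-NEAT1-1473 replicate 1, 0 without ASO-Ctrl replicate 2 or ASO-NEAT1-1047 replicate 2, 1 without ASO-NEAT1-1473 replicate 2 and 2 without ASO-NEAT1-1047 replicate 1. For ASO-NEAT1-1473 it was 97 without ASO-Ctrl replicate 3, 1 without ASO-Ctrl replicate 2, 7 without ASO-NEAT1-1473 replicate 2 and 10 without ASO-NEAT1-1047 replicate 1. By gene, DST was called for ASO-NEAT1-1473 in 9 of 9 fits that left out 1 library. GUCY1A2, ZNF460 and MTND2P28 were called in 8, FN1 in 7 and SPACA6, HMGN4 and LINC02154 in 6. LINC01235 was called in 5, CCT4 and MT-CYB in 3 and KCNQ1OT1 and KRT25 in 2. For ASO-NEAT1-1047, LINC01235 was called in 7 of 9, SERPINE2 in 5 and LINC02154 in 4.

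The largest set of calls separated the ASOs from each other. With the block, 44 genes (0.302%) differed between ASO-NEAT1-1473 and ASO-NEAT1-1047, 38 higher (0.261%) and 6 lower (0.0412%) under ASO-NEAT1-1473. None of the 5 genes called for the mean of both ASOs was among them. The absolute log2 differences had a median of 0.40 and ran from 0.23 to 1.49.

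DST measured 177, 113 and 95.4 CPM in ASO-NEAT1-1047 replicates 1, 2 and 3 and 260, 152 and 142 CPM in ASO-NEAT1-1473, with 176, 122 and 115 CPM in ASO-Ctrl. Within each replicate number ASO-NEAT1-1473 was the highest, and the difference between the ASOs was 0.52 (SE 0.06, adjusted p = 3.25e-06). GUCY1A2 measured 157, 125 and 69.5 CPM in ASO-NEAT1-1047 and 247, 161 and 112 CPM in ASO-NEAT1-1473, a difference of 0.56 (SE 0.06, adjusted p = 3.25e-06). DCBLD2, a membrane receptor that binds growth factors, measured 188, 146 and 117 CPM against 263, 190 and 150 CPM (0.41, adjusted p = 4.40e-05). PHLDA1, an intracellular regulator of cell death and receptor signalling, measured 22.8, 17.5 and 11.5 CPM against 44.3, 26.3 and 17.7 CPM (0.74, adjusted p = 0.000203). These 4 genes were called in all 9 fits that left out 1 library.

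The other genes higher under ASO-NEAT1-1473 were of mixed kinds. They included CDH2, N-cadherin, at 0.29, CALD1, caldesmon, at 0.32, LTBP1, which holds latent TGF-beta in the matrix, at 0.38, MYOF, myoferlin, at 0.29 and ARHGAP18, a GTPase-activating protein, at 0.95. The receptor tyrosine kinase MET was at 0.58 and ERRFI1, a feedback inhibitor of ERBB receptors, at 0.28. The glycoprotein hormone STC1 was at 0.38, the chemokine CXCL5 at 0.27 and MALT1, a protease of NF-kB signalling, at 0.35. The 6 genes lower under ASO-NEAT1-1473 were RPS27 and RPS7, proteins of the small ribosomal subunit, both at -0.23, the imprinted noncoding RNA H19 at -0.49, the glucose-6-phosphatase gene G6PC3 at -0.40, LINC01535 at -0.80 and NEAT1 at -0.53. H19 measured 19.1, 22.4 and 21.5 CPM in ASO-NEAT1-1047 and 12.6, 16.3 and 15.9 CPM in ASO-NEAT1-1473, without overlap. Most of these calls were less stable than the 4 above. In blocked fits that left out 1 library, MALT1 was called in 8 of 9, ARHGAP18, CALD1 and STC1 in 7 and CXCL5 in 6. LTBP1 was called in 5, CDH2 and MYOF in 4 and MET and ERRFI1 in 3. Of the lower genes, RPS27 was called in 5, NEAT1 in 4, RPS7 in 3 and H19, G6PC3 and LINC01535 in 2.

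Many of these genes also varied with the replicate number. The number was called in 39 of the 44 (88.6%), against 24.5% of all genes tested. Of the 38 higher genes, 31 had a called number effect with lower levels in replicates 2 and 3 than in replicate 1, a pattern called in 1745 of all 14549 genes. Its part in the difference between the ASOs was not tested. Without the block 0 of the 44 were called, and the blocked fit on all 24 libraries called 1 gene (0.0063% of 15869), ARHGAP18, which was higher. The blocked count was 243 without ASO-Ctrl replicate 1, 136 without ASO-Ctrl replicate 3, 28 without ASO-Ctrl replicate 2, 7 without ASO-NEAT1-1047 replicate 1 or 2, 12 without its replicate 3, and 26, 27 and 19 without ASO-NEAT1-1473 replicates 1, 2 and 3.

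**Figure D3:**
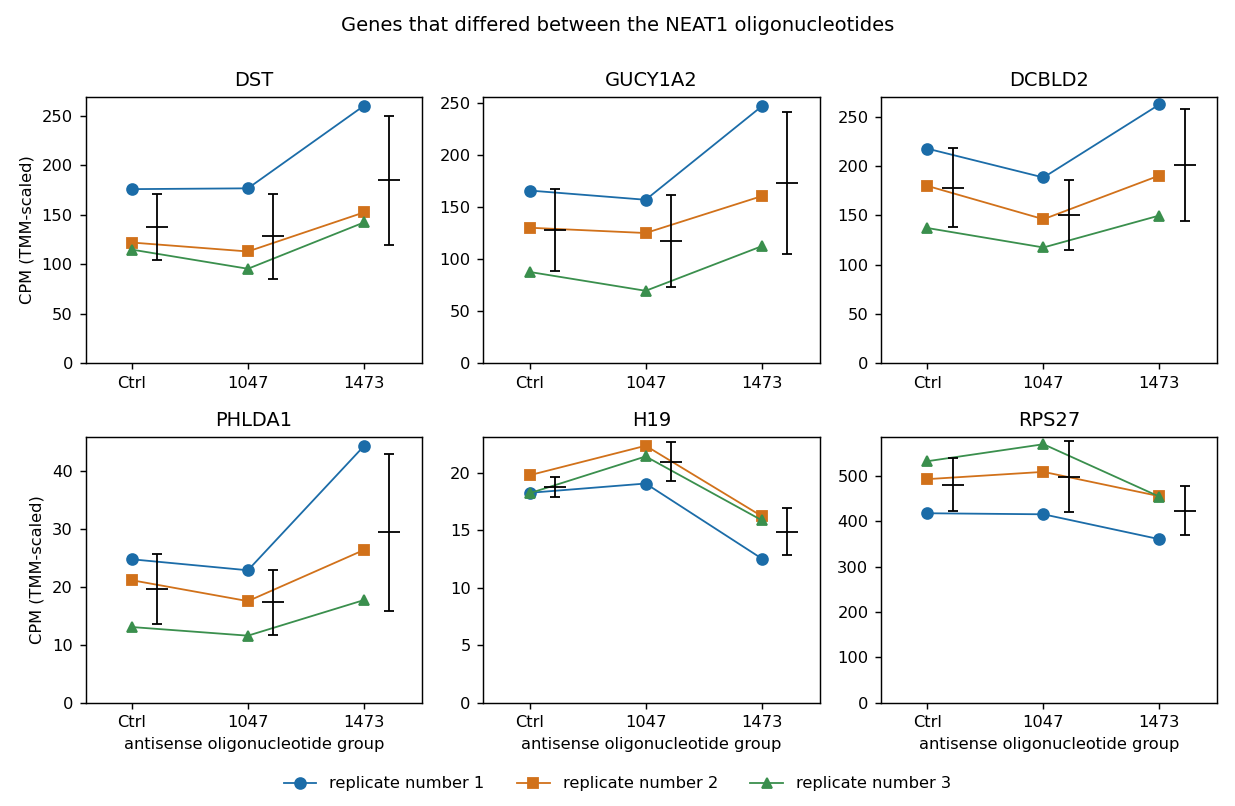
Level in each library (CPM, linear axis from 0) of 6 genes that differed between ASO-NEAT1-1473 and ASO-NEAT1-1047 in the fit with the replicate block. Coloured lines join libraries of the same replicate number, and black bars are the group mean ± SD (n = 3). DST, GUCY1A2, DCBLD2 and PHLDA1 are higher under ASO-NEAT1-1473 in each same-numbered pair and are lower in replicates 2 and 3 than in replicate 1 of every group, and H19 and RPS27 are lower in each pair.

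How large a change could have gone unseen was read from the 95% interval of each gene for the mean of both ASOs, not from the failed tests. Genes with a mean of at least 10 CPM over the 9 libraries were taken as well measured (8934 genes). Without the block, the interval held no 2-fold change in either direction for 8904 of them (99.7%), no 1.5-fold change for 8751 and no 1.25-fold change for 6632 (74.2%). The farther limit of the interval had a median of 1.19-fold, and 95% of the genes had it at or below 1.39-fold. With the block the counts were 8925, 8911 and 8134, with a median farther limit of 1.14-fold. Intervals widened by Bonferroni's rule to cover all 8934 genes at once held no 2-fold change for 7489 genes (83.8%) without the block and 8899 with it.

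Precision followed depth. Without the block, a 1.25-fold change lay outside the interval of 46.3% of genes at 10 to 30 CPM, 86.5% at 30 to 100 CPM and 93.4% at 100 to 300 CPM. Among the 5615 tested genes under 10 CPM, 76.2% excluded a 2-fold change and 33.1% a 1.5-fold change, so for most of these low genes a 1.5-fold change lay within the interval. For ASO-NEAT1-1473 alone, the ASO with the lower NEAT1, 8878 of the 8934 well-measured genes excluded a 2-fold change and 8575 a 1.5-fold change. For ASO-NEAT1-1047 alone the counts were 8881 and 8542. Against ASO-Ctrl replicate 3 alone, the counts for the mean of both ASOs were 8745 and 7038. These limits describe cells in which NEAT1 itself stood at 0.636 to 1.10 times the control level by the same interval.

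**Figure D4:**
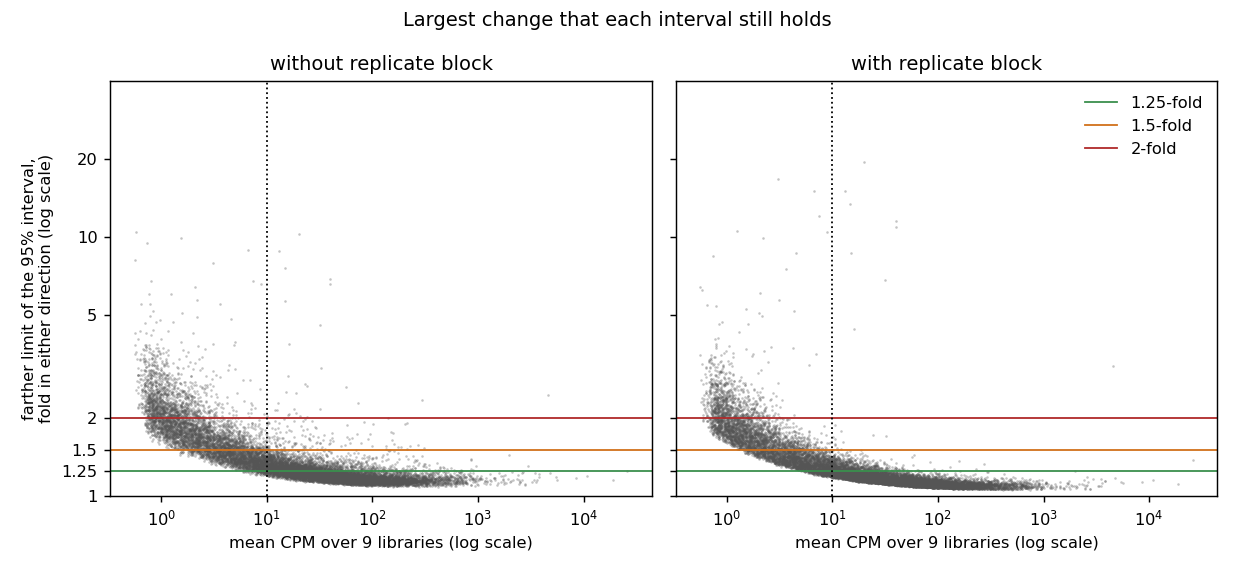
Farther limit of each gene's 95% interval for the mean of both NEAT1 ASOs against ASO-Ctrl, as a fold change in either direction (log axis), against its mean CPM (log axis), without and with the replicate block. Each point is 1 of 14549 genes, horizontal lines mark 1.25-, 1.5- and 2-fold and the dotted line marks 10 CPM. Most genes above 10 CPM lie below 1.5-fold in both panels, and the few high points above 10 CPM with the block are mainly short structural RNAs.

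The narrowest intervals belonged to FZD1, a Wnt receptor, BRD2, a reader of acetylated chromatin, ATP5F1A of the ATP synthase, the splicing protein SON and the electron carrier CYB5A. SON measured 576.2 to 611.5 CPM in all 9 libraries, and its interval ran from 0.914 to 1.08 times the control. At the other end, 30 well-measured genes still held a 2-fold change. They included 8 short structural RNAs and MT-RNR1, which were low in ASO-Ctrl replicates 1 and 2 and whose intervals stayed wide with the block. For RNU5A-1 the interval reached 10.2-fold without and 19.4-fold with the block. The other 21 held no 2-fold change once the block was added. SLC7A11, the cystine transporter, measured 9.63 to 13.4 CPM in the libraries numbered 1 and at least 38.8 CPM in all others, and its farther limit was 3.12-fold without the block and 1.15-fold with it. FN1 had limits of 2.36-fold and 1.24-fold, STC1 2.28-fold and 1.15-fold.

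Of 37 listed paraspeckle protein genes tested, 0 were called in either fit (0% of all genes without the block, 0.0344% with it), their median log2 change was -0.01 and all 36 well-measured ones excluded a 1.5-fold change. Of all 8934 well-measured genes, 8751 excluded a 1.5-fold change without the block and 8911 with it. Those shares are the background for this list and the lists that follow. A list whose well-measured members all excluded that change therefore does not stand out. SFPQ, which pairs with NONO and binds RNA and DNA, stood at 0.897 to 1.09 times the control, NONO at 0.877 to 1.08 times and PSPC1, the third protein of that family, at 0.870 to 1.06 times. RBM14, which paraspeckles need for assembly, stood at 0.860 to 1.18 times. The largest values of the list were DNAJC8 at -0.10 (-0.24 to 0.04) and ZNF335 at 0.14 (-0.15 to 0.42).

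Genes of microRNA production were not called in either fit for the mean of both ASOs. All 34 listed processing genes were well measured, all excluded a 1.5-fold change, and 0 had an unadjusted p under 0.05 without the block and 5 with it. DROSHA, the nuclear ribonuclease that cuts primary transcripts, stood at 0.890 to 1.10 times the control, its partner DGCR8 at 0.910 to 1.23 times, the export receptor XPO5 at 0.893 to 1.09 times and DICER1, which cuts the precursors, at 0.904 to 1.08 times. Of 26 noncoding microRNA host genes tested, 0 were called for the mean of both ASOs, the median was 0.08 against 0.00 over all genes, and their values ran from -0.42 to 0.42. Of 16 well-measured ones, 13 excluded a 1.5-fold change and 5 a 1.25-fold change without the block, and 14 and 8 with it. These were smaller shares than among all 8934 well-measured genes. There the counts were 8751 and 6632 without the block and 8911 and 8134 with it. An unadjusted p under 0.05 was found for 3 of the 26 without the block and 8 with it, beside 2.04% and 6.85% of all genes tested. MIR17HG, host of the miR-17 to miR-92a cluster, had 0.17 (0.01 to 0.32, unadjusted p = 0.0370), and MIR22HG had 0.34 (0.04 to 0.64, unadjusted p = 0.0315). The list holds NEAT1 and H19 themselves. Of 39 protein-coding hosts tested, 0 were called, the median was 0.03 and all 32 well-measured ones excluded a 1.5-fold change, with an unadjusted p under 0.05 for 1 without the block and 4 with it.

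The host genes were also set against the effect of SFPQ siRNAs in a fit on all 24 libraries, where the NEAT1 ASO effect was called in 0 of 30 noncoding and 0 of 40 protein-coding hosts. The difference between the SFPQ effect and the NEAT1 ASO effect, each against its own control, was called in 17 of 30 noncoding and 27 of 40 protein-coding hosts, beside 58.0% of all genes tested. For MIR17HG that difference was -2.09 (adjusted p = 6.14e-13). This comparison was added after results were known, and the reagents of the arms differ in kind.

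Long noncoding RNAs of the nucleus and the neighbours of NEAT1 were also listed. Of 21 nuclear long noncoding RNAs tested, 0 were called for the mean of both ASOs, and 18 of 20 well-measured ones excluded a 1.5-fold change. With the block KCNQ1OT1 was called for ASO-NEAT1-1473, and NEAT1 and H19 for the difference between the ASOs. MALAT1 measured 1403 to 2192 CPM in ASO-Ctrl and 1702 to 2313 CPM under the NEAT1 ASOs, 0.928 to 1.44 times the control without the block. Of 13 tested neighbours of NEAT1 on chromosome 11, 0 were called, the median was 0.09, and all 9 well-measured ones excluded a 1.5-fold change. MAP3K11, a kinase upstream of JNK, had the smallest p among them at 0.27 (0.04 to 0.50, unadjusted p = 0.0275, adjusted p = 0.999). Values of the 13 ran from -0.07 to 0.63. An unadjusted p under 0.05 was found for 2 of them without the block and 4 with it, beside 2.04% and 6.85% of all genes tested. Among the 21 nuclear long noncoding RNAs these counts were 1 and 5. Among mRNAs that have been tied to NEAT1, CXCL8, an inflammatory chemokine, was at -0.12 (-0.26 to 0.03) and LIN28A, a repressor of let-7 processing, at 0.00 (-0.17 to 0.17).

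No gene was called in the lists of responses that foreign nucleic acid or transfection can raise. Of 19 interferon-stimulated genes tested, 0 were called and 9 of 10 well-measured ones excluded a 1.5-fold change. IFIT1, which binds foreign RNA, had a mean of 614.8 CPM and a log2 change of -0.12 (-0.33 to 0.09). Of 10 sensors of nucleic acid and their adaptors, 0 were called, and IRF3 was at 0.12 (-0.12 to 0.35). RIGI was measured at only 0.756 CPM with an interval of -1.14 to 0.57, so a 2-fold fall of this sensor was not excluded. Of 15 genes of RNase H and oligonucleotide handling, all well measured, 0 were called. RNASEH1, the enzyme on which many ASOs rely, stood at 0.893 to 1.08 times the control. All 9 well-measured NF-kB targets excluded a 1.5-fold change.

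Stress and growth programmes were bounded in the same way. Since 8751 of all 8934 well-measured genes excluded a 1.5-fold change without the block, full exclusion does not set a list apart. All 23 well-measured p53 targets excluded a 1.5-fold change, and CDKN1A, an inhibitor of the cell cycle, stood at 0.837 to 1.32 times the control. All 38 well-measured S-phase genes and all 29 mitosis genes did so, with medians of -0.02 and -0.03. PRIM1, a DNA primase subunit, was at -0.21 (-0.38 to -0.03, adjusted p = 0.999). All 19 well-measured cholesterol synthesis genes, 23 glycolysis and hypoxia genes and 17 endoplasmic reticulum chaperones also excluded a 1.5-fold change. Genes of the integrated stress response were the exception, with 10 of 18 without the block and 18 of 18 with it. Several of them, such as SLC7A11 and SLC7A5, followed the replicate number.

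The mitochondrially encoded mRNAs had the lowest list median, -0.10 for the mean of both ASOs in either fit. None of the 13 was called for that mean, 1 of 13 had an unadjusted p under 0.05 without the block and 8 of 13 had one with it, and all 13 excluded a 1.5-fold change. MT-ND2, a subunit of complex I, was at -0.16 (-0.29 to -0.02), MT-CYB at -0.14 (-0.29 to 0.00) and MT-ND6 at 0.09 (-0.08 to 0.27). Counts from the mitochondrial genome as a whole made up 8.19% to 9.49% of the reads in ASO-Ctrl and 8.07% to 9.01% in the NEAT1 ASO libraries (exact permutation test over 84 arrangements of the library labels, 2-sided, p = 0.786, smallest possible 0.0119). That share includes MT-RNR1 and MT-RNR2, which were low in ASO-Ctrl replicates 1 and 2. Their part in the share was not tested.

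**Figure D5:**
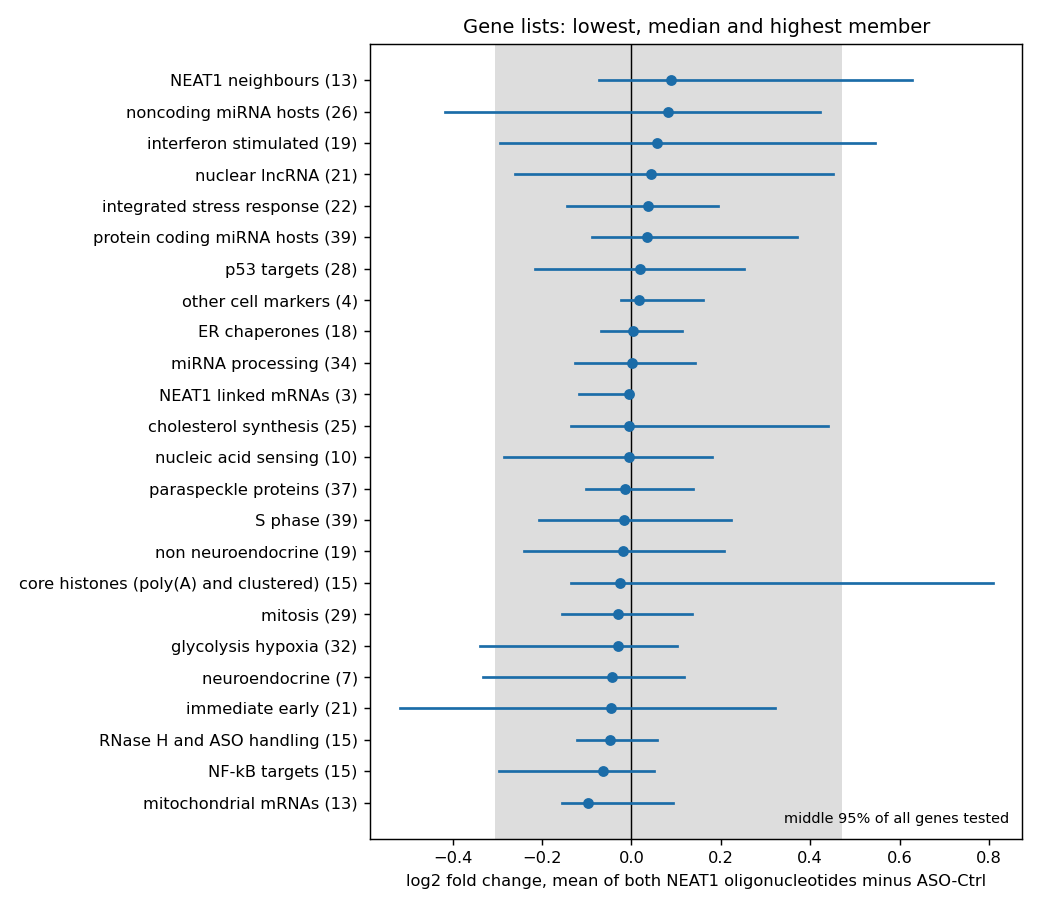
Log2 fold change of the mean of both NEAT1 ASOs against ASO-Ctrl, without the replicate block, for 24 gene lists (members tested in brackets). Points are list medians, lines run from the lowest to the highest member and the grey band holds the middle 95% of all 14549 genes. List medians lie between -0.10 and 0.09, and the histone list extends farthest to the right, to 0.81.

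No lineage gene was called for the mean of both ASOs. Of 7 neuroendocrine genes tested, 0 were called. NEUROD1, a lineage factor of a neuroendocrine subtype, was at -0.28 (-0.79 to 0.23), and few members were abundant enough for tight limits (2 of 7 well measured). Of 19 non-neuroendocrine and mesenchymal genes, 0 were called for the mean of both ASOs. Without the block 13 of 16 well-measured ones excluded a 1.5-fold change, a smaller share than the 8751 of all 8934 well-measured genes. With the block all 16 did. In that fit FN1 was called higher for ASO-NEAT1-1473, and 1 member of the list was called higher for ASO-NEAT1-1473 minus ASO-NEAT1-1047. The list median of that difference was 0.14 in either fit, against 0.00 over all genes tested. SNAI2, a repressor of epithelial genes, was at -0.07 (-0.21 to 0.07) and ZEB2 at -0.11 (-0.29 to 0.07). The histone list had the highest single value of any list, H1-4 at 0.81 (0.13 to 1.49, adjusted p = 0.999). H1-4 and H4C3, at 0.79, belong to the clustered histone genes that were low in ASO-Ctrl replicates 1 and 2, while H3-3B, a histone gene with a polyadenylated mRNA, was at -0.09 (-0.21 to 0.04).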

How the data were processed

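Poly(A)-selected RNA-seq was deposited as whole-number read counts per Ensembl gene for each library, 60605 genes, with no normalization by the authors, per the file headers and values. Per the submitters' processing notes, reads were handled against hg38 with DESeq2 1.38.1, cutadapt 4.2, STAR 2.7.5a and Subread 2.0.3 (featureCounts). The annotation release, strand setting and handling of multiply mapped reads were not given in the sources used here. Gene symbols came from a table of gene identifiers that matched 60463 genes, and coordinates are those of the files.

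The 9 ASO libraries were fitted together with edgeR 4.0.16 in R 4.3.3 (low-count filter by group, TMM factors of 0.986 to 1.03, robust quasi-likelihood fit, Benjamini-Hochberg adjustment over all 14549 genes tested). CPM are counts scaled with these factors. The main design held the group only, and a further fit added the replicate number as a block. The numbers pair the libraries because all 9 same-number correlations exceeded the limit of 0.1 set for pairing, and each of 9 libraries correlated best with its own number in both other groups. The labels say nothing of what a number shares. Standard errors and 95% intervals came from the fit's weights and quasi-dispersions and were checked on generated data. Those data held a replicate effect only in the check of the blocked fit, and no split like that within ASO-Ctrl. Intervals without the block were therefore not checked under a replicate effect such as these libraries show. DESeq2 1.42.0, RLE factors, no filter, all 24 libraries and leaving out each library served as alternatives. Depth is given as total counts, and intervals cover counting error and the spread between these libraries.

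The comparison and the 24 lists (598 symbols) were chosen with earlier results of these data known. Named genes are NEAT1 and its protein partners, then well-measured genes with the smallest p per contrast and fit (up to 5 or 3 each way), up to 2 per list and direction, and those with the narrowest and widest intervals. Genes named beyond this rule, among them the structural RNAs and the other blocked calls, were chosen after their values were seen. Comparisons against ASO-Ctrl replicate 3 alone, the blocked alternatives and the contrast with SFPQ were added after seeing the data. Some genes that met the rule are not reported here.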

Additional observations from a re-analysis of the deposited data

Results flagged for a closer look

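The difference between the ASOs was tested directly, as ASO-NEAT1-1473 minus ASO-NEAT1-1047 in the fit with the replicate block, and 7 genes chosen by the naming rule differed. DST was higher by 0.52, GUCY1A2 by 0.56 and DCBLD2 by 0.41 (log2) under ASO-NEAT1-1473, each in 3 of 3 same-numbered pairs. RPS27 at -0.23, H19 at -0.49, RPS7 at -0.23 and NEAT1 at -0.53 were lower in 3 of 3 pairs. The blocked test favours genes with such agreement, so the pairs are no separate evidence. Without the block none of the 7 was called. In blocked fits that left out 1 library, DST, GUCY1A2 and DCBLD2 were called in 9 of 9, RPS27 in 5, NEAT1 in 4, RPS7 in 3 and H19 in 2. The replicate number was itself called for DST, GUCY1A2, DCBLD2, RPS27, RPS7 and NEAT1 but not for H19 (adjusted p = 0.217), and its part was not tested.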

How the results depend on the processing

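The replicate block moved the counts of calls, over 14549 genes, from 0 to 5 for the mean of both ASOs. They moved to 4 for ASO-NEAT1-1047, 17 for ASO-NEAT1-1473 and 44 for their difference. DESeq2 with the block gave 9, 2, 24 and 39, adjusted over 8456, 32567, 3031 and 3031 genes. These were 0.106%, 0.00614%, 0.792% and 1.29%, so the counts of the tools are not on 1 scale. No low-count filter gave 1 call for ASO-NEAT1-1473 and 1 for the difference, and all 24 libraries with the block gave 0, 0, 0 and 1. With the block and no filter the counts were 21, 13, 43 and 105. Against ASO-Ctrl replicate 3 alone they were 43, 208, 14 and 368 with the block and 0 in each case without it. Leaving out 1 library gave ranges of 0 to 20, 0 to 15, 0 to 13 and 0 to 0 without the block, and 0 to 59, 0 to 274, 1 to 97 and 7 to 243 with it. The replicate number was called in 2162 of 13881 genes (15.6%) by DESeq2, and by edgeR in 2248 to 4559 genes when 1 library was left out.

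NEAT1 under ASO-NEAT1-1047 changed sign with RLE factors (-0.0056), without the filter (-0.0081), in DESeq2 (-0.0090) and against ASO-Ctrl replicate 3 alone (-0.38), and ran from -0.19 to 0.24 when 1 library was left out. NEAT1 under ASO-NEAT1-1473 ran from -0.72 to -0.29, the mean of both from -0.46 to -0.03 and the difference from -0.65 to -0.44 in those fits. NEAT1 was called for ASO-NEAT1-1473 by DESeq2 with the block (-0.50, adjusted p = 0.0301 over 3031 genes). For the difference with the block it was called by edgeR (-0.53, over 14549 genes) and DESeq2 (-0.52, over 3031 genes). The mitochondrial share differed by -0.34 to 0.32 percentage points, and total counts by -1077400 to 1469300, when 1 library was left out. The cause of these changes was not tested. Well-measured genes that excluded a 2-fold change numbered 8745 to 8925 under every setting run, and those that excluded 1.5-fold 7038 to 8911. Without the block, most genes at 10 to 30 CPM had intervals that held a 1.25-fold change.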
